A study of Mus musculus with 36 samples.

Results

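The genes described here encode the calcium/calmodulin-dependent protein kinase II (CaMKII) subunits α, β, δ and γ (Camk2a, Camk2b, Camk2d and Camk2g) and calmodulin (Calm2 and Calm3). They were taken by symbol from the deposited count and TPM values (a level per transcript length, scaled to the same sum in every library), which gives 6 genes of 55291 listed in all. All 6 passed the filter on low counts that left 19231 genes. The RNA came from left ventricle and atria of CUG960 mice, a heart model of myotonic dystrophy type 1 (DM1). Every mouse was homozygous for TREDT960I, in which a tetracycline response element drives interrupted CTG repeats within the human DMPK gene, and hemizygous for MHCrtTA, in which the cardiomyocyte α-myosin heavy chain promoter drives the transactivator that doxycycline (dox) activates. The repeat RNA is thus made in cardiomyocytes on dox. The +dox mice were on dox chow from postnatal day 1, the –dox mice never were, and the +/–dox mice were taken off dox at 9 weeks. The remaining mice were kept on dox throughout and were given, at 9 weeks, AAV9 carrying tagged human MBNL1 cDNA (the MBNL1 cohort), tagged human MBNL2 cDNA (MBNL2) or both (MBNL1+MBNL2), each under the human TNNT2 promoter. The labels name no vector for the other cohorts, so that the vector itself and its MBNL cDNA cannot be told apart. No sequenced cohort was on dox without the repeat transgene, so dox itself and the repeat RNA cannot be told apart either. All tissue was collected at 21 weeks, with 3 libraries for each of the 12 groups of a chamber and a cohort, 36 in all. Ventricle and atria of a cohort came from the same mice.

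CaMKII is a holoenzyme assembled from subunits of 4 genes, and it is switched on when calcium-loaded calmodulin binds its regulatory segment. In heart muscle the δ subunit is the form known best, and γ accompanies it, whereas α and β are known above all from neurons. The kinase phosphorylates the ryanodine receptor Ryr2, phospholamban (Pln) and the L-type calcium channel, and so it acts on calcium entry, calcium release and relaxation. Calmodulin is the calcium sensor that also regulates calcineurin, myosin light chain kinases and the plasma membrane calcium pumps.

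Calm2 and Calm3 encode 1 and the same protein. Their coding sequences, both 450 bases in GENCODE M21, translate alike to 149 residues although only 82.7% of their bases match. The first 120 coding bases are shown because they make plain both the family likeness and why reads can still be told apart. Capitals mark the 18 positions at which they differ.
Calm2: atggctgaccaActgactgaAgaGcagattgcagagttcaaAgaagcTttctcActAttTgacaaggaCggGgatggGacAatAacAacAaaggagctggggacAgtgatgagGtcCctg
Calm3: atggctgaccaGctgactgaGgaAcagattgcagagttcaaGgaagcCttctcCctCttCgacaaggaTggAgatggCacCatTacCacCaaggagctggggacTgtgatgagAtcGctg

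The kinase genes are less alike at the base level. Over the first 120 coding bases, Camk2b matched Camk2d at 74.2% of positions and Camk2g at 75% of positions, and the 41 positions that vary among the genes shown are in capitals.
Camk2b: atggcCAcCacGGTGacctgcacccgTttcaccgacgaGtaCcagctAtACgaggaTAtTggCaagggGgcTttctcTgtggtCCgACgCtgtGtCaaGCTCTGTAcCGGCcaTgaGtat
Camk2d: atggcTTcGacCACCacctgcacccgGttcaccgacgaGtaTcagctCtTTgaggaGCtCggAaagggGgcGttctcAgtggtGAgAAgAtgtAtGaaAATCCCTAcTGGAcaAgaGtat
Camk2g: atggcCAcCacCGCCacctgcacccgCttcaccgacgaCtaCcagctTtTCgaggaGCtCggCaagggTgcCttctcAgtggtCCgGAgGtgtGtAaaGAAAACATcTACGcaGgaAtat

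Camk2b was the only gene of the 6 called in any comparison. For that reason the RefSeq promoter of Camk2b (GRCm38.p6, chr11:6065699-6065998, minus strand), read 5′ to 3′ from 250 bases before to 50 bases after the start, is printed with the overlapping GGGCGG matches in capitals.
Camk2b promoter: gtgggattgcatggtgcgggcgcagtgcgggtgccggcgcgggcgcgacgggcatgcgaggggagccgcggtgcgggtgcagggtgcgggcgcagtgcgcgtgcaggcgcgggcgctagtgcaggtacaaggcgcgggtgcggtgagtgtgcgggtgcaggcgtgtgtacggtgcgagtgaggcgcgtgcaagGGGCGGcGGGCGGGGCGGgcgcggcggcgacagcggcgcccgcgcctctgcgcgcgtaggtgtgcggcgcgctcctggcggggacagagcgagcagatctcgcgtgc

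This window lies inside the Camk2b gene as annotated in GENCODE M21, whose 5′ end is further upstream than the RefSeq start used. The window was 77.3% G and C, against a median of 52.7% over all 32851 promoters of the table. It held 3 GGGCGG matches on either strand, a motif that 35.7% of all promoters hold at least once. It held no CANNTG (72.3% of all promoters), no GGAAA (61.3%) and no TATAAA (13.6%). Promoters of the same table were found for 3 of the 6 genes, and those of Camk2d and Calm3 held 70.3% and 72% G and C.

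Over all annotated transcripts, no stretch of 31 bases was shared between Calm2 and Calm3 or between Camk2b, Camk2d and Camk2g. Camk2a shared 6 such stretches with Camk2b and 2 with Camk2d. In GENCODE M21 on GRCm38, Camk2b lies at chr11:5969644-6066362 on the minus strand (15 transcripts), Camk2d at chr3:126596302-126846326 on the plus strand (28 transcripts), Camk2g at chr14:20734875-20794088 on the minus strand, Camk2a at chr18:60925618-60988152 on the plus strand, Calm2 at chr17:87433412-87446935 on the minus strand and Calm3 at chr7:16915379-16924114 on the minus strand. No annotated gene overlapped Camk2b, Camk2g, Calm2 or Calm3. Camk2a contains the microRNA genes Mir7220 and Mir6982 on its own strand, and Camk2d overlaps 7 unconfirmed transcribed loci on its own strand and the antisense gene Gm15551.

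The total of expected counts was between 55031987 and 97091184 per library, and the 6 genes had between 1057 and 20602 expected counts in every library. The ventricular library of MBNL1 replicate 1 stood apart, with 16885 genes above 0 against 20578 to 24041 in the others. Without it, no call on these genes changed. Of the atrial markers, 5 of 5 were lower in the ventricle, and of the ventricular markers all 5 in –dox and 4 in +dox mice were higher there. Mbnl1 in the ventricle was between 56.4 and 68.1 TPM in MBNL1 mice, against 44.9 to 54.7 TPM in +dox mice, and Mbnl2 was between 127 and 174 TPM in MBNL2 mice, against 93.4 to 108 TPM in +dox mice. The vectors carry human cDNA and reads were aligned to the mouse genome. These levels are therefore no measure of how much MBNL RNA the vectors made. The libraries came in 2 sets by their names, and replicate 3 of 5 cohorts, as well as all of MBNL1+MBNL2, belonged to the second. Xist was above 1 TPM only in the replicate 3 libraries of these 5 cohorts in each chamber, so that sex and set cannot be told apart within them. The study lists all MBNL1+MBNL2 mice as male, whereas the other cohorts held both sexes. In whole tissue, fewer cells of a type and less RNA per cell cannot be told apart either.

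On the TPM scale, Calm2 had the highest level of the 6 genes in all 12 groups. In ventricles of +dox mice it stood at 98.9 ± 6.20 TPM (SD, n = 3), followed by Calm3 at 76.0 ± 5.91 and Camk2d at 59.5 ± 4.90. The remaining kinase genes were lower, Camk2a at 24.99 ± 1.97 TPM, Camk2g at 19.2 ± 1.28 and Camk2b at 10.7 ± 0.801. This order of means held in all 6 ventricular cohorts. Calm2 and Calm3 overlapped there only in MBNL2 mice, and Calm3 and Camk2d only in +/–dox mice. In atria of +dox mice the levels were 151 ± 0.797 TPM for Calm2, 107 ± 4.18 for Calm3, 101 ± 2.54 for Camk2d, 41.3 ± 2.91 for Camk2a, 34.9 ± 0.801 for Camk2g and 34.1 ± 4.89 for Camk2b. Calm3 and Camk2d changed places or overlapped in 5 of the 6 atrial cohorts, and Camk2g and Camk2b overlapped in +dox and MBNL2 atria.

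**Figure D1:**
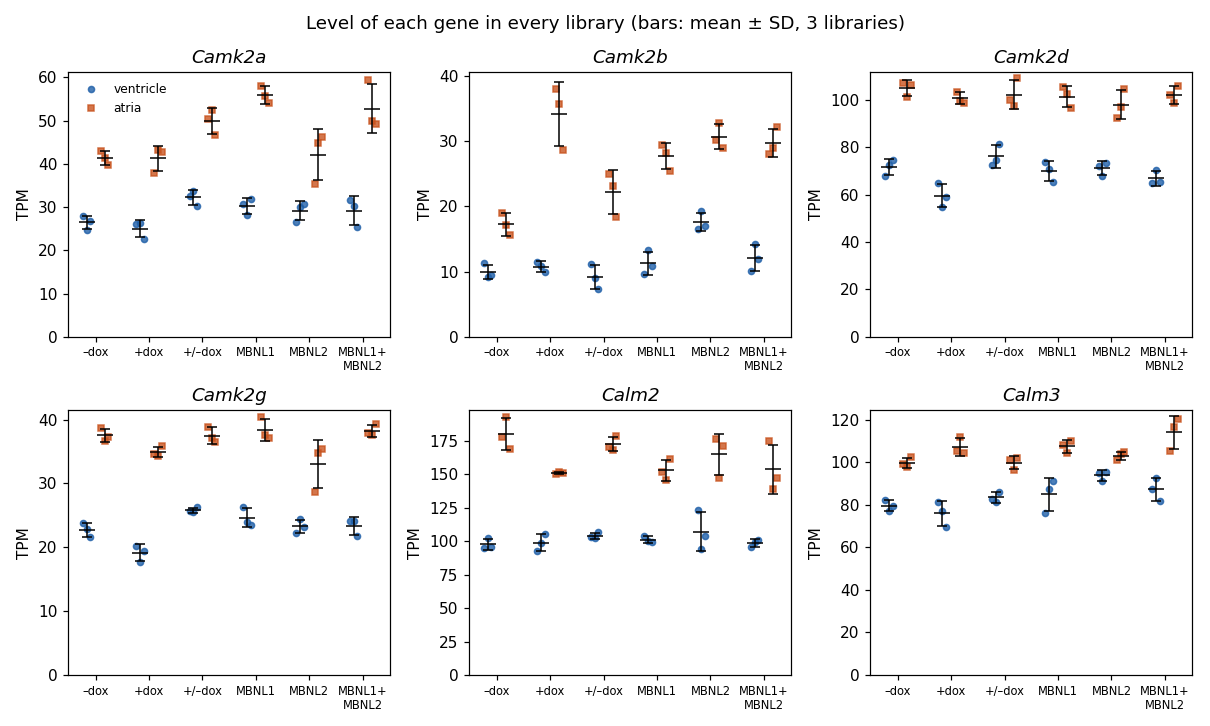
Level of each gene in TPM (vertical axis, from 0) in every library, by cohort, with ventricles as circles and atria as squares. Black bars give the mean ± SD of 3 libraries. The atrial Camk2b level falls from a mean of 34.1 TPM in +dox to 17.2 TPM in –dox mice, while ventricular Camk2b is highest in MBNL2 mice at 17.6 TPM.

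Camk2b, the β subunit that also anchors the kinase to actin, differed most between cohorts. Its highest cohort mean was 1.98 times its lowest in the atria and 1.92 times in the ventricle, whereas for the other 5 genes this ratio was between 1.07 and 1.36. In atria, the +dox libraries held 38.0, 35.7 and 28.6 TPM of Camk2b and the –dox libraries 19.0, 17.2 and 15.5 TPM. Every –dox library was thus below every +dox library, in a comparison in which 36.6% of all genes tested did not overlap on the count scale. By edgeR's quasi-likelihood test, Camk2b fell by 0.87 on the log2 scale in –dox against +dox atria (SE 0.16, adjusted p = 0.000444), past the call threshold of an adjusted p below 0.05 and a 1.5-fold change. It was the 1 gene called among the 6, in a comparison in which 5.23% of all genes tested were called. Within the first library set the difference was -0.91 and within the second it was -0.74.

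The mean of the withdrawal cohort lay between these groups. Camk2b in +/–dox atria was at 24.9, 23.1 and 18.4 TPM, each below the lowest +dox library, in a comparison in which 31.7% of all genes tested did not overlap on the TPM scale. The log2 difference from +dox was -0.53 (SE 0.16, adjusted p = 0.0294 by edgeR), which is below the 1.5-fold threshold, so that 0 of 6 genes were called where 3.99% of all genes were. Between –dox and +/–dox atria the log2 difference in Camk2b was -0.33 (SE 0.16, adjusted p = 1), and the libraries overlapped. In this comparison 0.0104% of all genes were called and none of the 6.

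In the vector cohorts the mean atrial Camk2b level lay between those of +/–dox and +dox mice. The libraries held 29.4, 28.1 and 25.5 TPM in MBNL1, 30.2, 32.7 and 29.0 TPM in MBNL2 and 28.1, 28.9 and 32.2 TPM in MBNL1+MBNL2 atria, and each of these cohorts overlapped with +dox. The log2 differences from +dox were -0.31 (SE 0.16, adjusted p = 0.683), -0.12 (SE 0.16, adjusted p = 1) and -0.27 (SE 0.16, adjusted p = 0.643), in that order. In these atrial comparisons 0.13%, 0.0052% and 0.26% of all genes were called, and none of the 6. Against +/–dox atria, Camk2b was higher in MBNL2 by 0.42 (SE 0.16, adjusted p = 0.101), in MBNL1 by 0.22 (adjusted p = 0.545) and in MBNL1+MBNL2 by 0.27 (adjusted p = 0.39), none of which was called. There, 3.24%, 1.21% and 1.71% of all genes were called.

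Ventricular Camk2b had another order of cohorts. Its level was 11.5, 10.8 and 9.91 TPM in +dox, 11.2, 9.19 and 9.43 TPM in –dox and 11.1, 9.08 and 7.30 TPM in +/–dox libraries, which overlapped throughout. Against +dox, the log2 differences were -0.03 (SE 0.16, adjusted p = 0.918) in –dox and -0.12 (SE 0.16, adjusted p = 0.657) in +/–dox ventricles. The 3 ventricular MBNL2 libraries held 16.58, 19.23 and 17.01 TPM, above every library of the other 5 ventricular cohorts, of which the highest was 14.1 TPM. On this scale 30.3% of all genes tested did not overlap between MBNL2 and +/–dox ventricles, and 28.5% between MBNL2 and +dox ventricles. Against +/–dox ventricles, Camk2b rose in MBNL2 by 0.68 on the log2 scale (SE 0.16, adjusted p = 0.0133 by edgeR), where 1.57% of all genes were called. Against +dox ventricles the difference was 0.55 (SE 0.16, adjusted p = 0.0373), below the fold threshold, and 1.52% of all genes were called. The call against +/–dox was lost without +/–dox replicate 2 (adjusted p = 0.058), +/–dox replicate 3 (adjusted p = 0.0927) or MBNL2 replicate 2 (adjusted p = 0.0644). Within the first set the difference was 0.54 and within the second 1.05, and with the first set alone it was 0.53 and below the fold threshold. On the TPM scale the median gene was 0.13 higher in MBNL2 than in +/–dox ventricles and 0.12 higher than in +dox ventricles, so that TPM overstates the difference relative to other genes.

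The other vector cohorts had lower ventricular means, a difference between vector cohorts that was not tested. Camk2b was at 9.67, 13.2 and 10.8 TPM in MBNL1 and at 10.1, 14.1 and 11.9 TPM in MBNL1+MBNL2 libraries, both overlapping with +dox. The log2 differences from +dox were 0.03 (SE 0.16, adjusted p = 0.939) and 0.12 (SE 0.16, adjusted p = 0.721). Against +/–dox ventricles they were 0.15 (SE 0.16, adjusted p = 0.679) and 0.25 (SE 0.16, adjusted p = 0.532), and none of the 6 genes was called there, where 0.868% and 0.53% of all genes were.

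Whether the Camk2b difference was unequal in the chambers was tested as an interaction. For –dox against +dox, the ventricular minus the atrial log2 difference was 0.83 (SE 0.23, adjusted p = 0.0783), not called in the fit without pairing, where 0.764% of all genes were. Since both chambers came from the same mice and same-numbered ventricular and atrial libraries of a cohort deviated together, the fit with the replicate number as a block applies here, and it gave 0.82 (SE 0.10, adjusted p = 0.000157), which passed. With the block, 1.55% of all genes tested were called. For MBNL2 against +dox the interaction was 0.67 (SE 0.23, adjusted p = 0.263) without the block and 0.66 (SE 0.10, adjusted p = 0.00615) with it, where 0.421% of all genes were called with the block. For +/–dox against +dox it was 0.41 (adjusted p = 0.496) without and 0.38 (adjusted p = 0.0515) with the block, where 1.2% of all genes were called. Without the block, 0.489% of all genes tested had a called interaction for +/–dox, 0.0312% for MBNL1, 0.0364% for MBNL2 and 0.0728% for MBNL1+MBNL2. No other of the 6 genes had a called interaction in any of the 5 cohorts, with or without the block.

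Camk2a and Camk2b are abundant in neurons, so the levels of neuronal markers are given beside them. The summed TPM of the 6 neuronal markers was between 2.36 and 2.58 in +dox atria and between 2.76 and 6.90 in –dox atria, and between 4.01 and 6.03 over all ventricular libraries. Chat was at 0 in all +dox atrial libraries, and Snap25 and Chat were at 0 in all +dox ventricular libraries. The summed Schwann cell markers were between 9.26 and 10.9 TPM in +dox and between 13.47 and 17.99 TPM in –dox atria. Of 12 marker lists of cell types and chambers, 6 had a summed TPM that was higher in every –dox than in every +dox atrial library, and none was lower. Besides the neuronal, Schwann cell and cardiomyocyte lists, these were the 5 atrial markers (39740 to 42850 TPM in +dox and 53920 to 57350 TPM in –dox atria), the 5 fibroblast markers (991 to 1217 and 1329 to 1399 TPM) and the 5 endothelial markers (186 to 209 and 231 to 276 TPM). Camk2b was lower in that cohort. In ventricles of MBNL2 against +/–dox mice, the 5 macrophage markers were higher (123 to 140 TPM against 80.2 to 110.5 TPM) and the cardiomyocyte, Schwann cell and erythrocyte markers lower without overlap. The part of these lists in the Camk2b differences was not tested.

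The other kinase genes had smaller differences between cohorts, all of them below 1.5-fold. Camk2d, the main cardiac subunit, was at 64.7, 54.9 and 59.1 TPM in +dox, at 67.7, 72.5 and 74.6 TPM in –dox and at 72.3, 74.6 and 81.3 TPM in +/–dox ventricles. Both cohorts off dox at collection lay above every +dox library, in comparisons in which 33.6% and 38% of all genes tested did not overlap on the count scale. The edgeR log2 differences were 0.28 (SE 0.08, adjusted p = 0.00679) for –dox and 0.32 (SE 0.08, adjusted p = 0.00235) for +/–dox. In these ventricular comparisons with +dox, 7.6% and 6.6% of all genes tested were called at 1.5-fold, and none of the 6. In the vector cohorts the ventricular Camk2d differences from +dox were smaller, at 0.16 in MBNL1 (adjusted p = 0.196), 0.09 in MBNL2 (adjusted p = 0.556) and 0.08 in MBNL1+MBNL2 (adjusted p = 0.594). For atria the Camk2d differences were 0.09 in –dox (adjusted p = 0.49) and 0.06 in +/–dox (adjusted p = 0.657).

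Camk2g, the γ subunit, followed the same order. It was at 20.3, 17.8 and 19.5 TPM in +dox, 23.7, 22.9 and 21.6 TPM in –dox and 25.7, 25.5 and 26.3 TPM in +/–dox ventricles. The log2 differences from +dox were 0.31 (SE 0.08, adjusted p = 0.00596) and 0.46 (SE 0.08, adjusted p = 0.000107). In MBNL1 ventricles, at 26.37, 23.99 and 23.56 TPM, the difference was 0.30 (SE 0.08, adjusted p = 0.0173). In MBNL1+MBNL2 ventricles it was 0.23 (SE 0.08, adjusted p = 0.0802), and MBNL2 ventricles were 0.34 below +/–dox (SE 0.08, adjusted p = 0.0102). No Camk2g difference between atrial cohorts had an adjusted p below 0.05. In the edgeR fit without the block, the interaction of chamber and +/–dox was 0.29 for Camk2g (SE 0.11, adjusted p = 0.262). For Camk2d it was 0.26 in that fit (SE 0.11, adjusted p = 0.282). Both values are below 1.5-fold and so could not be called at any p. That fit does not use that both chambers came from the same mice. These p-values therefore do not decide whether the chambers differed.

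Camk2a, the α subunit, was at its lowest cohort mean in +dox mice of both chambers. In ventricles it was at 26.0, 26.2 and 22.7 TPM in +dox and 32.6, 33.7 and 30.4 TPM in +/–dox libraries, a log2 difference of 0.40 (SE 0.09, adjusted p = 0.0018). In atria it was at 37.9, 43.2 and 42.8 TPM in +dox and 50.4, 52.5 and 46.6 TPM in +/–dox libraries, a difference of 0.31 (SE 0.09, adjusted p = 0.0232). In –dox mice Camk2a was at 27.8, 24.7 and 26.8 TPM in ventricles and 43.0, 41.3 and 39.7 TPM in atria, which overlapped with +dox in both chambers on this scale. The log2 differences of –dox from +dox were 0.16 (SE 0.09, adjusted p = 0.24) in ventricles and 0.01 (SE 0.09, adjusted p = 0.939) in atria. The log2 difference of –dox from +/–dox was -0.25 in ventricles (adjusted p = 0.467) and -0.29 in atria (adjusted p = 0.702), although the TPM of these libraries did not overlap in either chamber. Neither did those of 12.6% of all genes tested in ventricles and 10.7% in atria. In the ventricular comparison of –dox and +/–dox, 0.0312% of all genes were called.

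Atrial Camk2a was highest in MBNL1 mice. The MBNL1 atria held 58.0, 55.8 and 54.0 TPM, all above +dox, and the log2 difference was 0.44 (SE 0.09, adjusted p = 0.0188 by edgeR). MBNL1+MBNL2 atria, at 59.4, 49.8 and 49.1 TPM, were also above every +dox library, with a difference of 0.32 (SE 0.09, adjusted p = 0.112). In these atrial comparisons 15.1% and 17.1% of all genes tested did not overlap on the TPM scale. MBNL2 atria, at 35.3, 44.9 and 46.2 TPM, overlapped with +dox. In ventricles the differences from +dox were 0.28 for MBNL1 (adjusted p = 0.0516), 0.19 for MBNL1+MBNL2 and 0.12 for MBNL2, and none of the 6 genes was called in these comparisons, in which 2.66%, 2.65% and 1.52% of all genes were.

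The 6 cardiomyocyte markers, summed, were higher in every +/–dox than in every +dox ventricular library, whereas –dox and +dox ventricles overlapped. Their summed TPM was between 26080 and 27900 in +dox and between 31230 and 32820 in +/–dox ventricles, and between 27270 and 29470 in –dox ventricles. The median log2 difference of this list from +dox was 0.26 in +/–dox and 0.05 in –dox ventricles, with Tnnt2 and Ryr2 called higher in the former and Ryr2 in the latter. The 4 erythrocyte markers, globin genes among them, summed to between 378 and 1189 TPM in +dox, between 2345 and 2924 TPM in +/–dox and between 1840 and 4122 TPM in –dox ventricles. The endothelial markers were between 156 and 175 TPM in +dox, between 196 and 216 TPM in +/–dox and between 194 and 240 TPM in –dox ventricles. The fibroblast markers were between 582 and 639 TPM in +dox, between 651 and 711 TPM in +/–dox and between 516 and 636 TPM in –dox ventricles. Of the 12 lists, 4 were higher without overlap in each of –dox and +/–dox than in +dox ventricles and none was lower. The part of these lists in the kinase differences was not tested. In atria the cardiomyocyte sum was between 26690 and 27610 in +dox and between 29000 and 30100 TPM in –dox mice, the opposite direction to Camk2b.

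The calmodulin genes also stayed below 1.5-fold in every comparison between cohorts. Calm2 in atria was at 150, 152 and 151 TPM in +dox and at 178, 193 and 169 TPM in –dox libraries. These did not overlap, in a comparison in which 33.7% of all genes tested did not overlap on the TPM scale. The log2 difference was 0.29 (SE 0.09, adjusted p = 0.0239), below the fold threshold. In +/–dox atria, at 171, 168 and 178 TPM, it was 0.25 (SE 0.09, adjusted p = 0.0609). In ventricles the Calm2 differences from +dox were between -0.05 and 0.09, and no adjusted p was below 0.05.

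Calm3 had no difference between cohorts with an adjusted p below 0.05 in either chamber. Its largest difference from +dox was 0.15 (SE 0.07, adjusted p = 0.175), in MBNL2 ventricles, where the libraries held 94.8, 91.0 and 95.4 TPM against 81.5, 76.9 and 69.7 TPM in +dox. These libraries did not overlap, nor did those of 27.8% of all genes tested on the count scale in this comparison.

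Several of these differences had an adjusted p below 0.05 without reaching 1.5-fold. Against +dox ventricles that p alone was passed by 2 of the 6 genes in –dox, 3 in +/–dox, 1 in MBNL1, 1 in MBNL2 and 0 in MBNL1+MBNL2 mice, and by 20.9%, 21.8%, 8.95%, 7.43% and 8.34% of all genes tested. Against +dox atria it was passed by 2, 2, 1, 0 and 0 of the 6 in the same order of cohorts, and by 15.9%, 12.6%, 0.348%, 0.0104% and 0.686% of all genes. For MBNL2 against +/–dox ventricles these numbers were 2 of 6 and 5.39%. Between the chambers, in the fit without the block, they were 2 of 6 and 42.6% in –dox and 3 of 6 and 43.6% in +dox mice. The count over the 6 genes was near the share of all genes there.

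**Figure D2:**
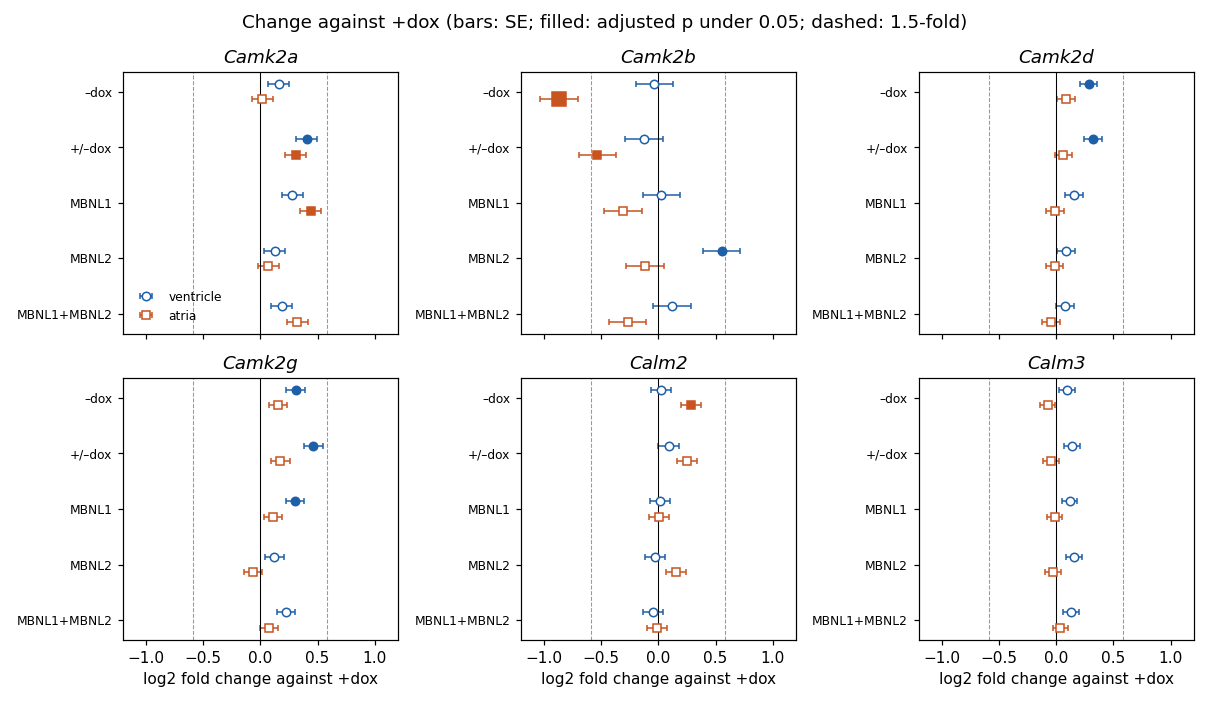
Log2 fold change against +dox (horizontal axis) of each gene in 5 cohorts, with ventricles as circles and atria as squares. Bars are the SE, filled symbols have an adjusted p below 0.05, dashed lines mark 1.5-fold, and the 1 large symbol is the called value, Camk2b in –dox atria at -0.87. All comparisons of a chamber share the same 3 +dox libraries.

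Shares of the summed CaMKII TPM do not depend on the scaling of a library. Camk2d made up 52.0% ± 1.69 (SD, n = 3) of CaMKII mRNA in +dox ventricles and 47.7% ± 0.808 in +dox atria. Camk2b made up 16.1% ± 2.01 in +dox and 8.57% ± 0.686 in –dox atria, and 10.5% ± 1.53 in +/–dox atria. The lowest +dox atrial library, at 13.9%, was above the highest –dox and +/–dox library, at 9.15% and 11.6%. In ventricles the share of Camk2b was 9.38% ± 0.458 in +dox, 7.62% ± 0.866 in –dox, 6.402% ± 1.399 in +/–dox and 12.5% ± 0.961 in MBNL2 mice. The lowest MBNL2 share, 11.8%, was above the highest share in any other ventricular cohort, 10.2% in MBNL1+MBNL2.

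In total, CaMKII mRNA in ventricles was at 114 ± 6.99 TPM in +dox, 131 ± 1.53 in –dox and 143 ± 1.79 in +/–dox mice. The summed TPM of Calm2 and Calm3 was 175 ± 0.591, 177 ± 2.27 and 188 ± 4.87 in the same cohorts. The ratio of this sum to CaMKII mRNA in ventricles was therefore 1.53 ± 0.0953 in +dox, above 1.35 ± 0.0332 in –dox and 1.31 ± 0.0214 in +/–dox mice, and its lowest +dox library, at 1.42, was above the highest –dox library, at 1.38. In atria this ratio was 1.23 ± 0.0268 in +dox and 1.39 ± 0.077 in –dox mice. Shares and ratios are given as a description, with no test.

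**Figure D3:**
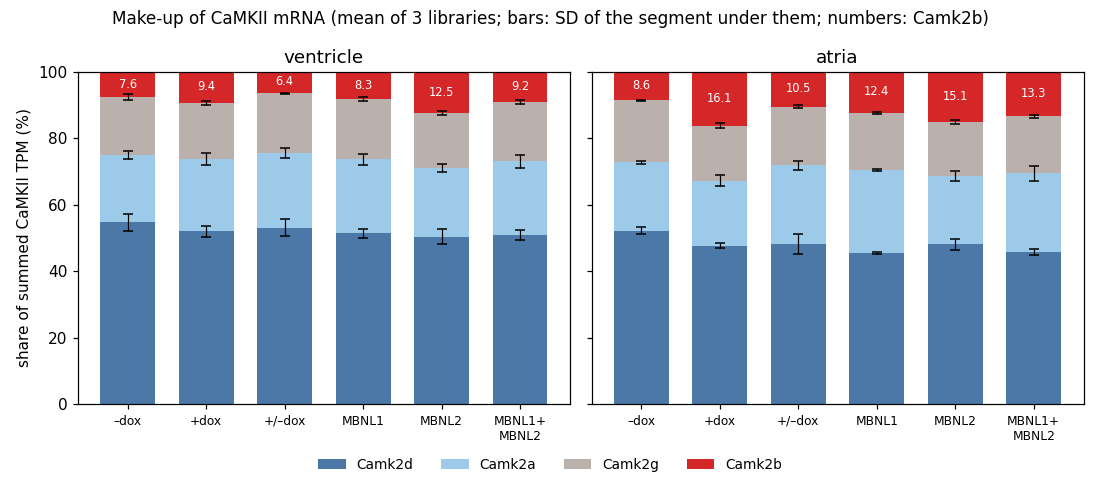
Share of the summed CaMKII TPM (vertical axis, percent) made up by each subunit gene, as the mean of 3 libraries by cohort, ventricles left and atria right. Bars give the SD of the segment under them and the printed numbers the Camk2b share. Camk2d holds the largest share in every group, and the Camk2b share in atria is highest in +dox at 16.1% and lowest in –dox at 8.6%.

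Between the chambers, the answer depends on the scale. On the TPM scale all 6 genes were lower in ventricles than in atria, without overlap, in –dox and in +dox mice, and 65.6% and 65.2% of all genes tested did not overlap either. The median of all genes tested was lower in ventricles by a log2 difference of 0.50 in –dox and 0.47 in +dox mice on this scale, however, and by 0.03 and 0.01 on the scale of TMM-normalized counts. On the count scale, Camk2b in +dox mice was the only gene called, with a log2 difference of ventricle from atria of -1.12 (SE 0.16, adjusted p = 1.93e-06), in a comparison in which 25% of all genes were called. In –dox mice the Camk2b difference was -0.29 (SE 0.16, adjusted p = 0.166), 0 of 6 genes were called, and 24.9% of all genes were. The edgeR values of the chambers, here and below, are from the fit without the block, which does not use that both chambers came from the same mice. With the block, Camk2b in +dox mice was at -1.11 (SE 0.07, adjusted p = 9.27e-11), and 25.3% of all genes were called. The –dox value without the block does not show that Camk2b was equal in the chambers.

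Calm2 and Calm3 differed between chambers in opposite directions in –dox mice, in which Calm2 was 0.34 lower (SE 0.09, adjusted p = 0.00206) and Calm3 0.22 higher (SE 0.07, adjusted p = 0.00993) in ventricles on the count scale. On the TPM scale both were lower in ventricles, Calm3 by 0.33, less than the median gene. In +dox mice, Camk2d was 0.24 lower (SE 0.08, adjusted p = 0.0103) and Camk2g 0.34 lower (SE 0.08, adjusted p = 0.000743) in ventricles. In these mice Calm2 differed by -0.08 and Calm3 by 0.05 on the count scale.

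**Figure D4:**
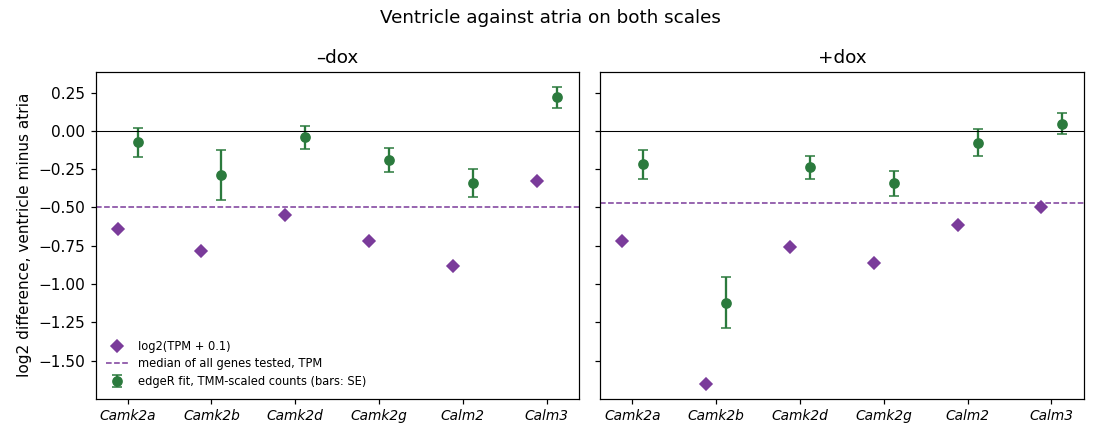
Log2 difference of ventricle from atria (vertical axis) for each gene in –dox and +dox mice. Diamonds are on the log2(TPM + 0.1) scale, whose median over all genes tested is the dashed line. Circles with SE bars are edgeR fits on TMM-scaled counts, made without the replicate block. The diamonds of the genes other than Calm3 lie below the dashed line in both panels. Camk2b in +dox mice lies furthest below it, at -1.65 against a median of -0.47, and is below 0 on both scales.

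A readout that the choice of genes did not use is the length index, the log2 of expected count over TPM, centred on the library's median. It follows the mean effective length of a gene's transcripts and so responds when longer or shorter transcripts take over. No gene of the 6 was called in any of the 17 comparisons made with it, at an adjusted p below 0.05 and a change of 10% by limma. Against +dox, 0.448%, 0.556%, 0.946%, 0.065% and 0.202% of all 13843 genes were called in –dox, +/–dox, MBNL1, MBNL2 and MBNL1+MBNL2 ventricles, and 0.376%, 0.397%, 0.0217%, 0.00722% and 0.0578% in atria. Between the chambers 0.419% were called in –dox and 0.535% in +dox mice, and in the 5 interactions at most 0.00722%. The annotated coding transcripts of Camk2d run from 640 to 5524 bases and those of Camk2b from 1590 to 4023 bases. Exchanges between transcripts of like length do not move the index. By RT-PCR, the study found Camk2d mis-spliced in +dox ventricles and atria, with partial rescue by MBNL. Exon changes that alter transcript length little can leave the index unmoved, so the lack of a call does not bear on them.

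Among the 6 genes, the index of Camk2b had the largest differences between cohorts. It was 0.01 ± 0.012 (SD, n = 3) in +dox and 0.10 ± 0.030 in –dox atria, and 0.02 ± 0.013 in +dox and 0.11 ± 0.032 in +/–dox ventricles. The differences from +dox were 0.09 (SE 0.03, adjusted p = 0.171 by limma) and 0.09 (SE 0.03, adjusted p = 0.103). In both comparisons the 3 libraries of a cohort did not overlap with those of the other, which held for 8.73% and 15.1% of all genes on the index. For Camk2d the index was 0.32 ± 0.028 in +dox and 0.28 ± 0.012 in +/–dox ventricles, a difference of -0.03 (SE 0.02, adjusted p = 0.374). The one index difference of the 6 genes with an adjusted p below 0.05 was that of Calm3 in MBNL1 against +dox ventricles, at 0.0083 and thus far below 10%.

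The pathway was followed in 60 further genes, of which 54 were tested. These include related kinases, CaMKII inhibitors and phosphatases, calmodulin buffers, calmodulin-regulated enzymes, CaMKII substrates and the MEF2 and NFAT factors. In –dox against +dox mice, 4 rose and 3 fell in ventricles (13% of those tested, against 7.6% of all genes), and 3 rose and 3 fell in atria (11.1%, against 5.23% of all genes). In +/–dox against +dox mice, 6 rose and 1 fell in ventricles (13%, against 6.6% of all genes), and 4 rose and 2 fell in atria (11.1%, against 3.99% of all genes). The median log2 difference of the 54 genes from +dox was between -0.03 and 0.07 in the 10 comparisons.

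The largest rise among those given here was that of Pnck in –dox ventricles. This gene encodes the CaMKI family kinase CaMKIβ. Pnck rose in ventricles of –dox (1.72, SE 0.23, adjusted p = 2.93e-06), +/–dox (1.57), MBNL1 (1.23) and MBNL1+MBNL2 mice (1.19), and in atria of –dox (1.26) and +/–dox mice (1.23). Its level was 1.65 ± 0.479 TPM (SD, n = 3) in +dox and 5.17 ± 1.01 TPM in –dox ventricles, so it stayed below every CaMKII gene. Camkk1, a kinase that activates CaMKI and CaMKIV, fell in –dox mice by 0.72 in ventricles (adjusted p = 0.0138) and by 0.87 in atria (adjusted p = 0.00227).

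Of the 9 CaMKII substrates, Ryr2 and Cacna1c rose in ventricles and Ryr2 and Pln in atria of both –dox and +/–dox mice. Ryr2, the calcium release channel, was at 78.8 ± 1.06 TPM in +dox and 146 ± 6.35 TPM in –dox ventricles (log2 difference 0.96, SE 0.07, adjusted p = 2.24e-11). Pln, the inhibitor of the calcium pump, rose in –dox atria by 0.93 (SE 0.11, adjusted p = 3.2e-07), with an interaction of chamber and cohort of -0.88 (adjusted p = 0.00183).

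Of the 4 CaMKII inhibitors and phosphatases, the inhibitor Camk2n2 rose in +/–dox (0.99, SE 0.33, adjusted p = 0.0286) and MBNL1 ventricles (1.29, SE 0.33, adjusted p = 0.0119), at levels of 0.75 and 0.947 TPM against 0.39 TPM in +dox. The phosphatase Ppm1e, which can dephosphorylate CaMKII, fell in MBNL1 mice by 0.79 in ventricles (adjusted p = 0.000137) and by 0.60 in atria (adjusted p = 0.0127). Of the 18 calmodulin-regulated enzymes tested, Mylk4, a myosin light chain kinase, fell in –dox mice by 0.99 in ventricles (adjusted p = 0.00386) and by 1.105 in atria (adjusted p = 0.0019). Neither the catalytic nor the regulatory calcineurin genes were called against +dox in any cohort. Of the 12 MEF2, NFAT and feedback genes, Nfatc4 alone was called against +dox, in +/–dox, MBNL1 and MBNL2 ventricles (0.67, 0.72 and 0.64). None of the calmodulin buffers was called against +dox. Of the other calmodulin-like genes, Calm4, Calm5 and Calml3 were at or below 0.13 TPM in every library.

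**Figure D5:**
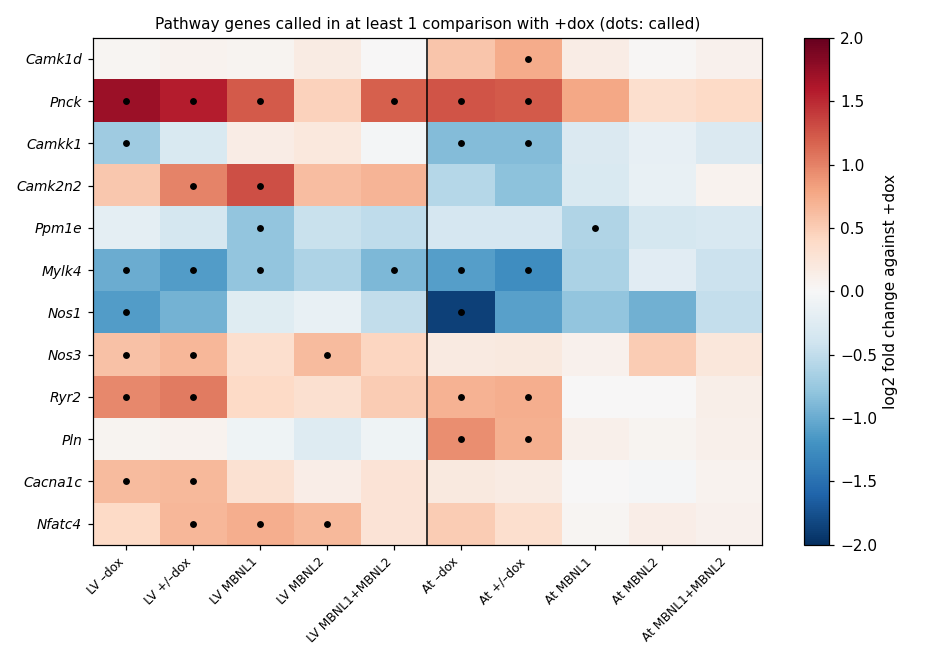
Log2 fold change against +dox (colour scale, -2 to 2) of the 12 pathway genes called in at least 1 of the 10 comparisons, ventricle (LV) left and atria (At) right of the line. Dots mark called values. Most dots stand in the –dox and +/–dox columns, and Pnck and Mylk4 have 6 dots each.

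Across all 36 libraries, after the mean of the chamber was subtracted, the genes whose log2 CPM followed Camk2b most closely were Nt5c1a (Pearson's r = 0.85), Fam131a (0.83) and Txnrd3 (0.823). For Camk2d they were Cap2 (0.834), Timm44 (0.805) and Sirt3 (0.803), and for Camk2g Mid1ip1 (0.859), Pygb (0.846) and Tcea3 (0.839). For Camk2a they were Tmem63b (0.862), Slc37a4 (0.835) and Fxyd1 (0.817). Calm2 was followed by Fnip1 (0.799), Zfp948 (0.77) and Ccdc50 (0.767), and Calm3 by Maea (0.82), Fam160b2 (0.8) and Nt5m (0.792). Among the 6 genes themselves, the closest pair was Camk2d and Camk2g (0.787), and Camk2b and Calm2 had the most negative value (-0.366). These values describe 36 libraries that share cohorts and library sets.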

How the data were processed

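RNA-seq data were from left ventricle and atria of CUG960 mice, with 36 libraries in 12 groups taken from the sample labels. Poly(A)-selected, stranded libraries were aligned by the authors with STAR 2.7.10b to mm10, and genes of GENCODE M25 were quantified with RSEM 1.3.1, whose strand setting is not given in the sources used here. The deposited expected count values are RSEM estimates per gene symbol without normalization. The deposited TPM values are RSEM estimates scaled by transcript length. Splicing and reads were not analysed here.

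After rounding to whole numbers, the expected counts of all 36 libraries entered 1 fit with a mean per group in edgeR 4.0.16 (R 4.3.3) with TMM normalization, filterByExpr, robust dispersions and quasi-likelihood tests. Adjusted p-values are Benjamini-Hochberg values over the 19231 genes tested in a comparison. Calls need an adjusted p below 0.05 together with a change of 1.5-fold or more, the authors' thresholds. SEs were derived from the F statistic. The length index was tested with limma 3.58.1 (trend, robust) over 13843 genes with an expected count of at least 10 in every library. The labels call the replicates biological and name no animals, but the study lists the same mice for both chambers. Same-numbered ventricular and atrial libraries of a cohort deviated together over the 5000 most abundant genes (r between 0.141 and 0.661 in 18 of 18 pairs), so the replicate block is given beside comparisons of the chambers where it changes a call. Common dispersion corresponded to a biological coefficient of variation of 17.4%. Library totals of 55031987 to 97091184 expected counts leave counting error small beside it.

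The genes, the lists and the tests were chosen with earlier results of these data known. The text names the 6 genes in full, called genes of the fixed lists with at most 4 examples a list, Mbnl1 and Mbnl2, and the 3 genes most like each of the 6 by Pearson's r of log2 CPM (prior count 2). Xist and the microRNA and antisense genes within the loci were added after their values or positions were seen. Alternatives were RLE size factors, no filter on low counts, DESeq2 1.42.0, limma on log2(TPM + 1) and log2(TPM + 0.1) for genes with a mean of at least 0.1 TPM, fits of only the groups compared, a replicate block, the library set as a covariate, the first set alone, no fold threshold, and leaving out each library. Scripts were tested on simulated data. Coordinates and coding sequences are from GENCODE M21 on GRCm38, the build of mm10, and promoters from RefSeq (GRCm38.p6); coding sequences were translated with Biopython 1.88. Some items of the lists are not reported here.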

Additional observations from a re-analysis of the deposited data

Results flagged for a closer look

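The difference between the chambers in Camk2b passed the test of the interaction when the replicate number was used as a block. For –dox against +dox, the ventricular minus the atrial log2 difference was 0.82 (SE 0.10, adjusted p = 0.000157 by edgeR), in a fit that called 1.55% of all genes. Camk2b differed from +dox by -0.87 in –dox atria and by -0.03 in –dox ventricles. For MBNL2 against +dox it was 0.66 (SE 0.10, adjusted p = 0.00615), in a fit that called 0.421% of all genes, with -0.12 in atria and 0.55 in ventricles. Without the block neither passed (adjusted p = 0.0783 and 0.263). Both comparisons use the same +dox libraries.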

How the results depend on the processing

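Over the alternatives on expression, 1424 of 1470 values of single genes kept their side of the call threshold, 44 passed it and 2 lost it, and no called value reversed. Without a fold threshold, 2 of the 6 genes were called between the chambers in –dox (42.6% of all genes) and 3 in +dox mice (43.6%). Against +dox it was 2 in –dox (15.9%), 2 in +/–dox (12.6%) and 1 in MBNL1 atria (0.348%), and 2 in –dox (20.9%), 3 in +/–dox (21.8%), 1 in MBNL1 (8.95%) and 1 in MBNL2 ventricles (7.43%), with 2 in MBNL2 against +/–dox ventricles (5.39%). On log2(TPM + 1) and on log2(TPM + 0.1) by limma, 4 genes were called between the chambers in –dox (31.5% and 43.8% of all genes) and 5 in +dox mice (31.3% and 42.9%), where the scale itself moves, and 1 each in +/–dox atria (3.05% and 4.34%) and MBNL2 ventricles (1.35% and 2.72%) against +dox and in the –dox interaction (1.03% and 0.617%). The –dox interaction also had 1 call with DESeq2, with the library set as a covariate, with the replicate block and with the first set alone (0.494%, 1.13%, 1.55% and 1.04% of all genes), and the MBNL2 interaction 1 with the library set and with the block (0.172% and 0.421%). MBNL2 against +/–dox ventricles had 0 calls when only the groups compared were fitted (adjusted p = 0.0899) and with the first set alone.

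Leaving out 1 library at a time, between 0 and 1 gene was called in +/–dox atria (Camk2b, at -0.60 without +/–dox replicate 1, -0.63 without +/–dox replicate 2 and -0.68 without +dox replicate 3), in the –dox interaction (Camk2b, at 0.98 without atrial +dox replicate 3) and in MBNL2 against +/–dox ventricles, whose log2 difference in Camk2b was then between 0.50 and 0.88. Camk2b in –dox against +dox atria was called in 9 of 9 alternatives, at a log2 difference between -0.97 and -0.86, and in 6 of 6 fits without a library, between -1.01 and -0.73. No alternative called a length index of the 6 genes. Between cohorts not every pair of same-numbered libraries deviated together, so the numbers were not taken as pairs. With r above 0.1 there were 19 of 45 such pairs in ventricles and 29 of 45 in atria, against 25 and 21 of 90 pairs with different numbers. Among replicates 3 of the 5 cohorts in which they share library set and sex, 9 and 10 of 10 pairs did. The replicate block changed no call there. MBNL1+MBNL2 has no library in the first set.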
